A study of Caenorhabditis elegans with 2 samples.

Results

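Binding of MADF-6 was examined inside the piRNA gene clusters of Caenorhabditis elegans chromosome IV. The data came from chromatin immunoprecipitation followed by sequencing (ChIP-seq) of whole worms of strain RW12237, genotype st12237[madf-6::TY1::EGFP::3xFLAG] I, in which a CRISPR insertion tags the madf-6 gene with EGFP. Synchronised by hatching after bleaching and starvation as first-stage larvae, the worms were harvested as young adults at 63 h, and tagged protein was pulled down with an antibody to GFP. The only group had 2 biological replicates. No untagged strain was analysed here, so every comparison below is between stretches of the genome. Where a replicate's own list was counted too, its values are given beside the result, and the other counts rest on the list that combines the replicates. Because whole animals were used, binding in few cells and weak binding in many cells cannot be told apart.

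The less strict of the authors' thresholded peak lists that combine the replicates held 5060 peaks, of which 888 had their summit (the position of highest enrichment) on chromosome IV. The peaks described here are the 226 with a summit between 4.5 and 7 Mb (the left cluster, 109 peaks) or between 13.5 and 17.2 Mb (the right cluster, 117 peaks). The other 662 peaks of the chromosome served for comparison. These limits were set by position, not by any measured value. The label was borne out by the Ensembl release 115 annotation of the WBcel235 assembly: the clusters held 14204 of the 15363 annotated piRNA genes, or 92.5%, with 2816 in the left cluster and 11388 in the right. The rest of the chromosome held 510. The piRNA genes were unevenly spread, with 2 in the first 250 kb of the left cluster. The first base of the annotated piRNA was T in 96.2% of the cluster piRNA genes.

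piRNAs are small RNAs that guide Argonaute proteins of the Piwi class. In C. elegans they are 21 bases long, begin with U, are made in the germline and load onto PRG-1, which directs silencing of foreign and transposon-like transcripts. Most are transcribed by RNA polymerase II from tiny individual genes, each with its own short promoter whose best known element is the Ruby motif, with CTGTTTCA at its core. The genes are packed among and inside ordinary protein-coding genes. MADF-6 takes its name from its MADF domain, a fold of the Myb family that contacts DNA.

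The sequences that carry the results are printed here, in 3 sets, from the RefSeq WBcel235 genome, 5′ to 3′. The first set is shown because a spaced pair of words recurred under cluster peaks. Capitals mark CGAGACC and GCGCCTT, each line gives the chromosome IV position and strand, and the name after it is the protein-coding gene within 500 bp of the summit or, where there was none, the nearest one.
puf-3, chrIV:13512389-13512422, minus: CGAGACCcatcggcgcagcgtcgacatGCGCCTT
puf-11, chrIV:6421333-6421366, plus: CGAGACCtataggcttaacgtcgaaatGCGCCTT
nearest iscu-1, chrIV:13783434-13783468, plus: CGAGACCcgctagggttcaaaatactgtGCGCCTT
ccar-1, chrIV:14071084-14071118, minus: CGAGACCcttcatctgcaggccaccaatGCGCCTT
Y17G9B.4, chrIV:4752009-4752042, minus: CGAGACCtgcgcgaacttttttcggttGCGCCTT
rpn-1 and ribo-1, chrIV:6910244-6910277, minus: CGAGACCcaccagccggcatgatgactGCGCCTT
nearest Y73B6BL.289, chrIV:6348048-6348081, minus: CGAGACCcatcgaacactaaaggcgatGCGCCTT
eef-1B.2, chrIV:15037152-15037185, minus: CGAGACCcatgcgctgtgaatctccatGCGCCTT
pgl-1 and him-3, chrIV:6977292-6977325, plus: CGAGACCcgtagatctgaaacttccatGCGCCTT
nearest ins-34, chrIV:14113797-14113830, plus: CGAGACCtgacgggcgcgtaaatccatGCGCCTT

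The second set shows the 5 piRNA genes nearest to a summit, each with the 60 bases before it and its own 21 bases. Capitals mark the Ruby core CTGTTTCA, which was there in 2 of these 5.
21ur-3398, chrIV:13601579-13601659, plus: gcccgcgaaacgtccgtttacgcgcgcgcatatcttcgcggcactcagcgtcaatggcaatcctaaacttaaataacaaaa
21ur-1009, chrIV:15234387-15234467, plus: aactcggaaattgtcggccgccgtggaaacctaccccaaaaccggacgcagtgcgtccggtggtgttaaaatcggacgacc
21ur-3338, chrIV:13600789-13600869, plus: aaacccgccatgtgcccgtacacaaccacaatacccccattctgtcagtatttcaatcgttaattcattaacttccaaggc
21ur-14324, chrIV:14196255-14196335, plus: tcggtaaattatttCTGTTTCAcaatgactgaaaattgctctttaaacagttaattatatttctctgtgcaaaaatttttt
21ur-7377, chrIV:5265097-5265177, minus: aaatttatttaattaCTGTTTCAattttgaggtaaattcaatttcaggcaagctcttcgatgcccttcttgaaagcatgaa

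The third set shows a repeat under strong intergenic peaks of the right cluster, as windows of 101 bp centred on the summit. Capitals mark the first occurrence of a run of 20 bases that the windows share. The window at 15896078 holds the run again further on, in lower case.
summit at 15896078, chrIV:15896028-15896128, plus: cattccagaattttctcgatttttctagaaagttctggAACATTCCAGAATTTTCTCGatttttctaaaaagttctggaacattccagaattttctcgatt
summit at 15059347, chrIV:15059297-15059397, plus: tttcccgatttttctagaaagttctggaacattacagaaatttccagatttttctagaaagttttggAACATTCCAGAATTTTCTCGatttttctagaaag

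The first question was whether MADF-6 peaks were as frequent in the clusters as along the rest of the chromosome. They were sparser. The clusters held 36.5 summits per Mb, against 58.6 per Mb in the rest of chromosome IV, a ratio of 0.622 with a 95% interval of 0.532 to 0.724. The left cluster held 43.6 summits per Mb and the right cluster 31.6. In replicate 1's own thresholded list the clusters held 22.9 summits per Mb and the rest 31.5, a ratio of 0.727 (0.594 to 0.885). In replicate 2's own list they held 32.1 and 52.3 per Mb, a ratio of 0.613 (0.520 to 0.721). The interval lay below 1 in both replicates. The clusters were also poorer in protein-coding genes, with 152 per Mb against 207 per Mb in the rest. Counted per 1000 protein-coding genes, the clusters held 240.2 summits and the rest 282.9, and the ratio was 0.849 (0.727 to 0.989).

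The medians of peak signal lay close together in the clusters and the rest. The signal, the authors' deposited enrichment value of each peak, had a median of 131.7 over the 226 cluster peaks, with quartiles of 89.4 and 236.1 and a range of 5.52 to 2410. The rest of the chromosome had a median of 124.7 and quartiles of 84.1 and 231.7. Median peak width was 320 bp in both. Of the cluster peaks, 115 overlapped peaks in both replicates' own thresholded lists, or 50.9% (44.4 to 57.3%, Wilson), against 315 of 662 in the rest, or 47.6% (43.8 to 51.4%). The difference of 3.30 percentage points had an interval of -4.21 to 10.8, which includes 0. Another 65 cluster peaks overlapped replicate 2's list alone, 8 overlapped replicate 1's list alone and 38 overlapped neither. Recovery by both replicates followed signal closely: 5 of the weakest 76 cluster peaks, 38 of the middle 75 and 72 of the strongest 75 were in both lists. The combined list was made from these same replicates, so this is not an independent check of the peaks. Of the 226 peaks 14 had the same replicate peak as a neighbour that they overlap. With each replicate peak given only to the nearest summit, a setting added after the data were seen, the counts were 1, 38 and 71, and 110 in all. In the replicates' longer ranked lists, made before thresholding, 219 of the 226 peaks had a counterpart in both, and the signals there had a Spearman correlation of 0.842, which is given as a description across peaks. It was 0.849 over the 204 that shared no replicate peak.

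**Figure D1:**
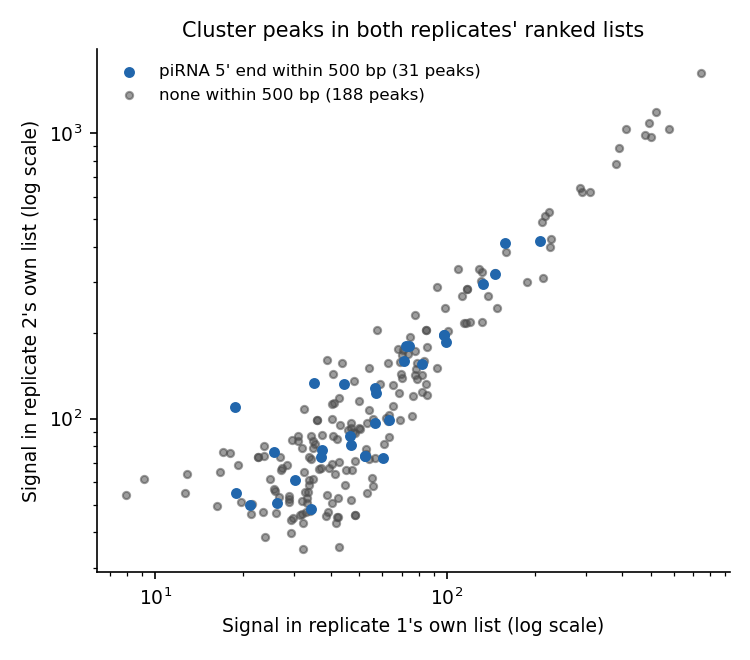
Signal of the 219 cluster peaks that have a counterpart in both replicates' own ranked lists, with replicate 1 on the horizontal and replicate 2 on the vertical axis (both log scales, authors' units, 1 point per peak). Peaks with a piRNA 5′ end within 500 bp are in blue and lie among the others, below the strongest peaks.

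The second question was where the summits lay relative to the piRNA genes themselves. They lay away from them. Only 33 of the 226 cluster summits, or 14.6% (10.6 to 19.8%), were within 500 bp of the 5′ end of a piRNA gene, whereas 61.9% of all cluster bases were that close. In the left cluster the summits near a piRNA gene were 8 of 109, or 7.34%, against 47.4% of bases. In the right cluster they were 25 of 117, or 21.4%, against 71.6% of bases. The replicates' own lists gave 16.2% (replicate 1) and 15.6% (replicate 2). Closer in, 9 of the 226 summits, or 3.98%, were within 100 bp, against 29.8% of bases, and 5, or 2.21%, were within 50 bp, against 16.8% of bases. The median distance to the nearest piRNA 5′ end was 3502 bp for cluster summits and 249 bp for cluster bases. In the left cluster these medians were 5497 and 582 bp, and in the right cluster 2052 and 155 bp.

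**Figure D2:**
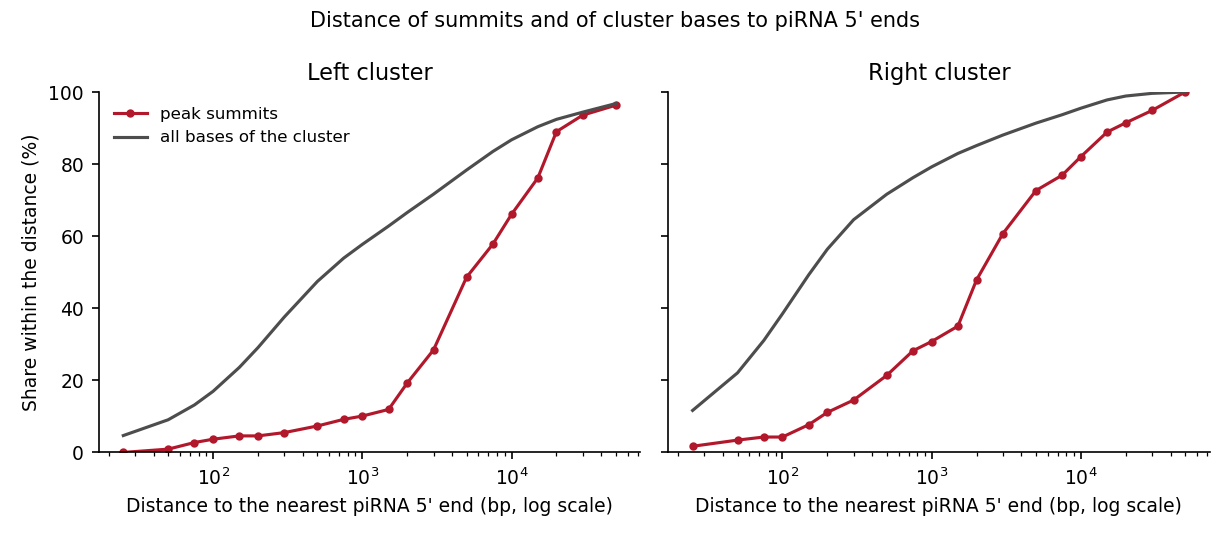
Share of peak summits (red, points) and of all cluster bases (grey line) within a given distance of the nearest piRNA 5′ end, for the left and right clusters, with distance on a log scale. The summit curve runs below the curve for bases in both clusters, and at 500 bp it stands at 7.34% against 47.4% in the left cluster and 21.4% against 71.6% in the right.

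In the rest of the chromosome, where piRNA genes are scattered, 13 of 662 summits, or 1.96%, were within 500 bp of a piRNA 5′ end, against 3.35% of bases. Seen from the genes, 66 of the 14204 cluster piRNA genes, or 0.465%, had a summit within 500 bp. Over all 6 nuclear chromosomes that share was 0.736%, but most of those genes are the cluster genes themselves. On the autosomes outside the clusters it was 46 of 997, or 4.61%. In the rest of chromosome IV it was 15 of 510, or 2.94%, and the clusters minus the rest differed by -2.48 percentage points (-4.33 to -1.32). Many of these genes share a summit, since 33 summits account for the 66, so the intervals over piRNA genes are too narrow.

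Splitting the sequence by its distance to piRNA genes changed the order of the regions. Within 500 bp of a piRNA 5′ end the clusters held 8.60 summits per Mb, against 34.3 per Mb in such sequence elsewhere on the chromosome, a ratio of 0.251 (0.128 to 0.519). Farther than 500 bp from every piRNA 5′ end the clusters held 81.7 summits per Mb, against 59.5 per Mb in the rest, a ratio of 1.37 (1.16 to 1.62). In that farther sequence the list of replicate 1 gave 50.3 and 31.8 per Mb, a ratio of 1.58 (1.28 to 1.96), and that of replicate 2 gave 71.1 and 53.0 per Mb, a ratio of 1.34 (1.12 to 1.60). In the nearer sequence the ratios were 0.252 (0.112 to 0.619) in replicate 1 and 0.235 (0.120 to 0.490) in replicate 2. The lower density near piRNA genes had intervals below 1 with the line drawn at 250, 500 or 1000 bp in each of the 5 lists counted. The higher density in the farther sequence depended on where the line was drawn. At 250 bp its ratio was 1.13 (0.960 to 1.32), with 1.29 (1.04 to 1.59) in replicate 1 and 1.11 (0.938 to 1.32) in replicate 2, and at 1000 bp it was 1.62 (1.36 to 1.91). In the ranked list before thresholding, which holds many weak calls, it was 1.03 (0.978 to 1.09) at 500 bp, and at 250 bp it turned to 0.856 (0.814 to 0.900).

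Protein-coding genes of the clusters followed the same division. A gene is called bound here when its annotated 5′ end had a summit within 500 bp. Of 941 protein-coding genes in the clusters 112 were bound, or 11.9% (9.99 to 14.1%), against 354 of 2340 in the rest of the chromosome, or 15.1% (13.7 to 16.6%), and 13.4% over all 6 nuclear chromosomes. The clusters minus the rest differed by -3.23 percentage points (-5.66 to -0.60), but in replicate 1's own list by -1.13 points (-3.12 to 1.07), an interval that includes 0. Among the cluster genes that had a piRNA 5′ end within 500 bp of their own, 9 of 458 were bound, or 1.97% (1.04 to 3.69%). Among those that had none, 103 of 483 were bound, or 21.3% (17.9 to 25.2%). The difference was -19.4 percentage points (-23.3 to -15.5). It was -18.7 points in the left cluster, with 4 of 185 against 62 of 297 bound, and -20.2 points in the right, with 5 of 273 against 41 of 186.

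Both replicates gave the same division on their own. In replicate 1's list 3 of the 458 and 72 of the 483 genes were bound. In replicate 2's list 8 and 100 were bound. In the ranked list before thresholding the shares were 10.3% and 49.5%. By number of piRNA neighbours, 103 of 483 genes with none were bound, 9 of 384 with 1 to 4, or 2.34%, and 0 of 74 with 5 or more (Wilson upper limit 4.93%). In the rest of chromosome IV, 7 of 82 genes with a piRNA neighbour were bound, or 8.54%, against 347 of 2258 without, or 15.4%, a difference of -6.83 points whose interval of -11.4 to 1.35 includes 0.

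**Figure D3:**
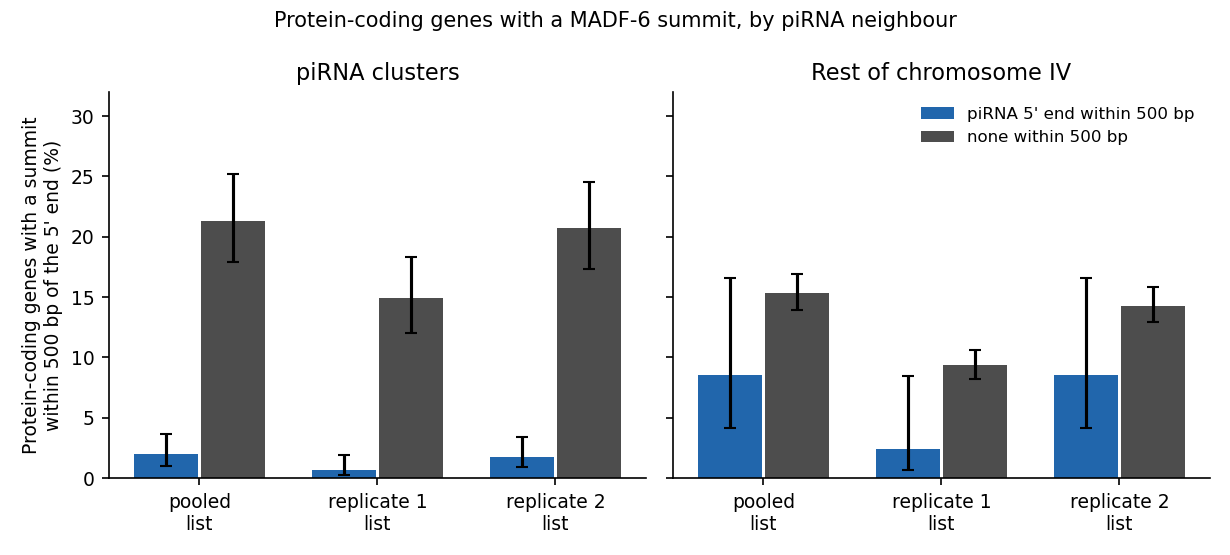
Share of protein-coding genes with a MADF-6 summit within 500 bp of the 5′ end, for genes with (blue) and without (grey) a piRNA 5′ end within 500 bp, in the pooled list and in each replicate's own list. Bars start at 0 and error bars are 95% Wilson intervals. In the clusters the pooled shares are 1.97% and 21.3%, and the rest of chromosome IV shows 8.54% and 15.4%.

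The same held inside promoter-proximal sequence alone. Within 500 bp of protein-coding 5′ ends, the clusters had 15.8 summits per Mb where a piRNA 5′ end was also within 500 bp, and 206 per Mb where none was. Of the 100 cluster summits in such sequence, 7 were near a piRNA gene, or 7% (3.43 to 13.7%), against 49.5% of its bases. In sequence farther from protein-coding 5′ ends it was 26 of 126, or 20.6% (14.5 to 28.5%), against 64.0% of bases. Promoter-proximal sequence away from piRNA genes in the rest of the chromosome held 150 summits per Mb. By annotated location, 75 cluster summits, or 33.2%, lay in promoters (the 500 bp before a protein-coding gene), which make up 7.20% of cluster bases. In the rest it was 34.3% of summits and 9.69% of bases. Introns held 18.6% of cluster summits and 21.3% of the others, beside 29.1% and 34.1% of bases. Intergenic sequence outside promoters held 23.9% and 19.2% of summits, beside 38.1% and 24.1% of bases. For each of the 7 location classes the interval of the difference between clusters and rest included 0. These differences do not allow for the unequal shares of bases.

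Along the clusters, peaks thinned out where piRNA genes were dense. In 100-kb bins with fewer than 20 piRNA genes (4 bins) there were 87.5 summits per Mb, and in bins with 20 to 99 (8 bins) 56.3 per Mb. Bins with 100 to 249 piRNA genes (22 bins) had 32.7 per Mb and those with 250 or more (28 bins) 26.4 per Mb. The list of replicate 1 gave 65, 33.8, 18.6 and 17.1 per Mb for the same classes of bin, and that of replicate 2 gave 82.5, 43.8, 29.1 and 23.9. The density of summits thus followed the same order in both replicates. Of the 4 bins in the lowest class, those from 4500001 to 4800000 adjoin each other at the left cluster's start. Protein-coding genes varied too, at 183, 228, 166 and 114 per Mb in the same order, as did the share of them that was bound, at 31.5, 12.6, 10.1 and 9.06%. The part of gene density in the trend was not tested beyond these values.

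Across the 62 cluster bins piRNA genes and summits had a Spearman correlation of -0.40, and piRNA and protein-coding genes one of -0.65. Both describe neighbouring bins of 1 chromosome that share base composition and gene content. The bin with the most piRNA genes, from 16000001 to 16100000, held 486 of them with 2 protein-coding genes and 0 summits, and 2 calls in the ranked list. The next densest held 442 piRNA genes with 2 summits and 430 with 0 summits. The cluster bins with the most summits had fewer piRNA genes: 17 summits beside 8 piRNA genes from 4700001 to 4800000, 11 beside 44 from 6300001 to 6400000, and 10 beside 190 from 15000001 to 15100000.

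The longest stretch of the clusters without a summit ran for 448 kb between summits at 15950196 and 16398389. It contained 1523 piRNA genes and 46 protein-coding genes. The clusters had 15 such stretches over 100 kb, with 6807 piRNA genes in them, and the rest of the chromosome had 11, with 51 piRNA genes. The longest in the rest was 223 kb and held 3 piRNA genes.

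**Figure D4:**
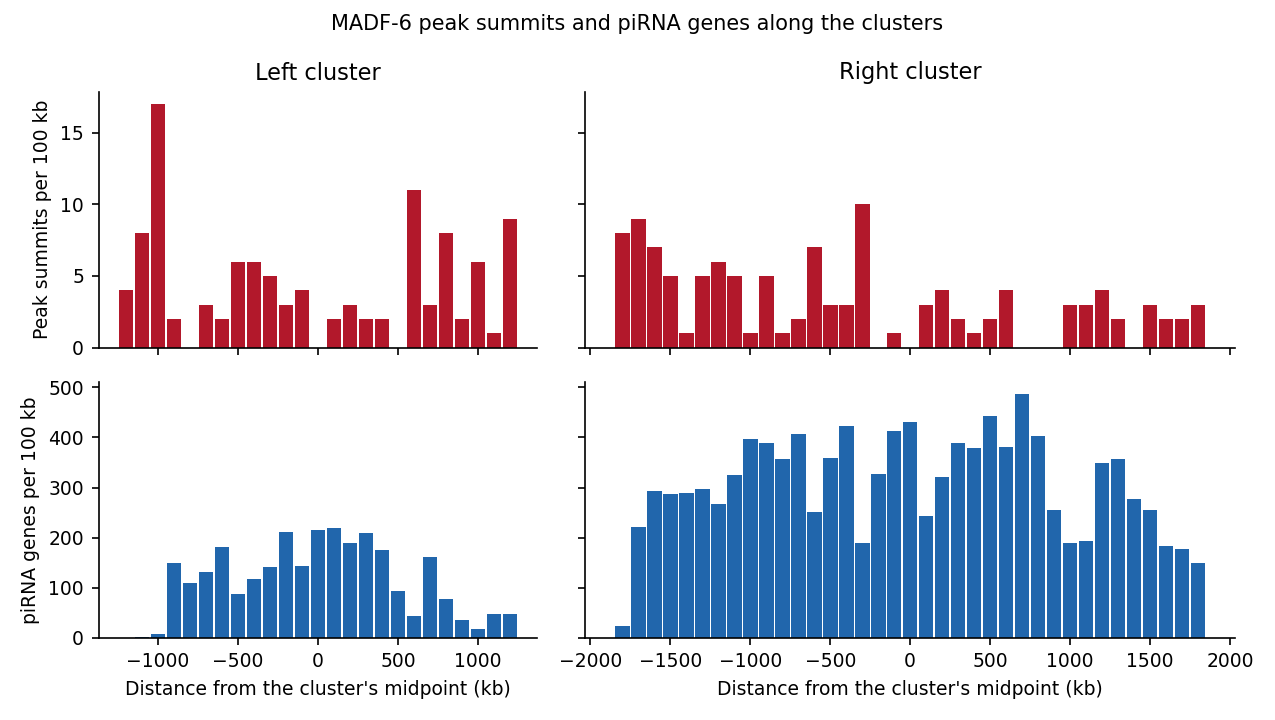
MADF-6 peak summits (red, upper panels) and piRNA genes (blue, lower panels) in consecutive 100-kb bins of the left and right clusters, plotted by distance from each cluster's midpoint in kb. The tallest summit bin holds 17 summits beside 8 piRNA genes, and the bin with 486 piRNA genes holds 0 summits.

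The 12 strongest peaks of each cluster, 24 in all, were present in both replicates' own thresholded lists. In the left cluster the top peak, with its summit at 4750068 in the promoter shared by rpl-20, which encodes a protein of the large ribosomal subunit, and Y17G9B.5, had a signal of 1700. It measured 523 in replicate 1 and 1190 in replicate 2. The peak at puf-11, which encodes an RNA-binding protein of the Pumilio family, had a signal of 1470, with 500.02 and 966 in replicates 1 and 2. That of rme-2, the oocyte receptor for yolk, had 1453, with 479 and 985. Signals in replicate 2's list ran higher than in replicate 1's for each of these, and the scales of the lists differ, so only positions within a list are compared. These peaks ranked 54th, 84th and 86th of 5060.

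Further left-cluster peaks in this set were at puf-7 and snpc-3.1 (signal 1226), T22D1.5 (930), ubc-9, which encodes the SUMO-conjugating enzyme (929), cyp-31A3 and memi-1 (918), lip-1, a phosphatase that acts on MAP kinase in the germline (747), and zen-4, a kinesin of cytokinesis (529). A further 3 had no protein-coding 5′ end within 500 bp. Their nearest genes were usp-4 (signal 1573), psr-1 (1445) and K08F11.1 (466). None of the 12 had a piRNA 5′ end within 500 bp. Several lay where piRNA genes are few, at the left cluster's start. The 100-kb bins from 4500001 to 4800000 held 0, 1 and 8 piRNA genes. They contained the peaks at rpl-20, ubc-9, and cyp-31A3 and memi-1, and those nearest to psr-1 and K08F11.1.

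In the right cluster the top peak, with its intronic summit at 14765092, close to the start of Y57G11C.5, had a signal of 2410, with 744 and 1624 in replicates 1 and 2. It ranked 23rd of all 5060 peaks and lay 58 bp from the snRNA gene Y57G11C.35. The peak at puf-3, another Pumilio-family gene, followed with 1602, and with 577 and 1032 in replicates 1 and 2. Then came an intronic peak nearest to rsd-2, a gene needed for systemic RNA interference (1297), a peak at rpl-29, of the large ribosomal subunit (720), and an intronic one nearest to nkcc-1 (708). Of the 12 strongest in the right cluster 5 lay in intergenic sequence outside promoters, with signals of 454 to 666, and 3 of these 5 had a piRNA 5′ end within 500 bp, a count chosen after its values were seen. The remaining 2 were the peak at ccar-1 (470) and an intronic peak nearest to iscu-1, an iron-sulphur cluster scaffold gene (554).

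Members of gene families were counted as bound in the same way, to be read against the 11.9% of all cluster protein-coding genes and the 13.4% of those in the genome. Of 5 ribosomal protein genes in the clusters 4 were bound (rpl-20, rpl-18, rpl-29 and rps-18), against 10 of 12 in the rest of the chromosome and 65 of 78 in the genome. Of 68 chemoreceptor genes 1 was bound (srw-95), against 0 of 81 in the rest and 11 of 1171 in the genome. The other families had few members in the clusters, where counts of 0 or 1 lie near what the share over all genes gives. Of 9 major sperm protein genes 0 were bound (0 of 31 in the genome), of 7 F-box genes 1 (fbxa-215; 11 of 322), and of 9 C-type lectin genes 0 (7 of 240). Of 6 cuticle collagen genes 0 were bound (6 of 156 in the genome), and of 5 nuclear hormone receptor genes 0 (4 of 269).

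At the low end, the 3 weakest cluster peaks had signals of 5.52 (tctn-1, a gene of the ciliary transition zone), 10.5 (nearest dld-1) and 10.5 (jmjd-1.2 and F29B9.11). Each lay beside a stronger peak, with summits at 4747694 (signal 76.2), 14460906 (135) and 4660493 (411), and the replicate peaks that overlapped it most also overlapped that neighbour. The replicates' values are therefore not given for these 3. Just inside the cluster limits the nearest summits were 11.0, 21.1, 3.78 and 63.3 kb from the limit, with signals of 110, 111, 139 and 97.9, in order along the chromosome. Just outside they were 28.4, 39.9, 35.9 and 57.7 kb away, with signals of 83.1, 3404, 222 and 55.9. The strong peak beyond the left cluster's end is thus not among those described.

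The 33 peaks that did lie within 500 bp of a piRNA 5′ end were not weak. Their median signal was 155.4 (10.5 to 632), against 125.7 (5.52 to 2410) for the other 193. Both replicates' lists held 18 of the 33, or 54.5%, and 97 of the 193, or 50.3%. Near-piRNA peaks were less often at protein-coding 5′ ends, with 7 of 33 (21.2%) against 93 of 193 (48.2%), a difference of -27.0 percentage points (-39.6 to -9.04). By contrast, 10 of the 33, or 30.3% (17.4 to 47.3%), lay within 500 bp of a tRNA, snRNA or snoRNA gene, against 21 of the 193, or 10.9% (7.23 to 16.1%), a difference of 19.4 percentage points (5.50 to 36.8). In all 10 the small RNA gene was closer to the summit than the piRNA gene was. The windows of 13 of the 33 held repeated sequence, described further on, and 12 had neither a small RNA gene, nor a protein-coding 5′ end, nor such a repeat. These classes were chosen after the values were seen.

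The 5 summits nearest to a piRNA 5′ end show this case by case. The nearest, at 13601620, came 19 bp before 21ur-3398 and 16 bp from smy-10, a gene for a spliceosomal SmY RNA. Its signal was 264, with 74.2 and 180 in replicates 1 and 2. Another, at 15234423, came 24 bp before 21ur-1009 and 23 bp from a snoRNA gene, with a signal of 293. A summit at 13600815 came 34 bp before 21ur-3338 and 32 bp from smy-8, with a signal of 233. For these 3 the 60 bases before the piRNA lacked CTGTTTCA, as the printed sequence of 21ur-3398 shows. The other 2 were 44 bp from 21ur-14324, in the promoter of F02H6.2 (signal 125, in replicate 2's own thresholded list only), and 45 bp from 21ur-7377 (signal 198, overlapping replicate peaks whose nearest summit was that of its neighbour at 5264867), and both of these piRNA genes carried the core. Of all cluster piRNA genes 34.8% had the core within 65 bp upstream, so 2 of 5 with it lies near the share over all. At 72 bp came the peak in the promoter of slfl-4, taken up again with the pathway genes.

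Small RNA genes of other kinds often had a summit, in the clusters and elsewhere. Of 75 tRNA, snRNA and snoRNA genes in the clusters 29 were bound, or 38.7% (28.5 to 49.98%), against 46 of 96, or 47.9%, in the rest of the chromosome and 45.2% over all 6 nuclear chromosomes. The clusters minus the rest differed by -9.25 points (-23.5 to 5.67), an interval that includes 0. The 5 strongest cluster peaks near such a gene were the Y57G11C.5 peak, the zen-4 peak (97 bp from a snoRNA gene), and those with summits at 14327163 (42 bp from a snoRNA gene, signal 454), at 4880884 (34 bp from a snoRNA gene, signal 440) and at 5261890 (23 bp from sls-2.12, signal 298). All 5 were in both replicates' lists. By kind, 12 of 41 tRNA genes, 11 of 18 snoRNA genes, 3 of 6 SmY RNA genes (smy-8, smy-9 and smy-10), 2 of 3 spliced-leader RNA genes (sls-2.12 and sls-2.13) and 1 of 7 other snRNA genes were bound. In the rest of the chromosome it was 20 of 30 tRNA genes and 15 of 40 snoRNA genes, where smy-2, annotated as a snoRNA gene, was counted by its name with the SmY RNA genes. Thus tRNA genes were bound less often in the clusters (29.3% against 66.7%) and snoRNA genes more often (61.1% against 37.5%). The combined difference merges these opposite directions. On the other chromosomes 50.8% of tRNA and 34.3% of snoRNA genes were bound. There it was 1 of 4 SmY RNA, 12 of 25 spliced-leader RNA and 30 of 60 other snRNA genes. Of the cluster summits 31, or 13.7%, were within 500 bp of such a gene, against 48 of 662, or 7.25%, in the rest.

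The Ruby core was absent from the summit windows of the combined list. CTGTTTCA, on either strand, occurred in 0 of the 226 windows of 101 bp centred on cluster summits, with a Wilson upper limit of 1.67%. Of all windows of that length in the clusters 7.36% held it, and of 452 flanking windows centred 300 bp from the summits 1.33% did. In the rest of the chromosome it was 0 of 662 summit windows and 0.760% of all windows. In windows of 100 bp to each side of the summit it was 2 of 226, against 14.6% of all cluster windows. The shorter TGTTTCA, contained in the core, was in 4 of 226 windows, or 1.77%, against 13.3% of all cluster windows. The core did mark the piRNA genes: 34.8% of those in the clusters had it within 65 bp upstream, at a median start 46 bp before the 5′ end. Replicate 1's own list had 1 cluster summit window of 142 with the core, or 0.704%, and replicate 2's had 0. Since the summits lay away from piRNA 5′ ends, the low share against all cluster windows is not a separate result. The 1.33% of flanking windows lies below the limit of 1.67%, so the 101-bp windows cannot tell summits from their flanks.

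Base composition set the summits apart from the clusters as well. Summit windows had a median GC content of 43.6% in the clusters and 43.6% in the rest of the chromosome, while the sequence of the clusters as a whole had 33.0% and the rest 35.5%. Flanking windows in the clusters had a median of 35.1%. Runs of at least 4 A or of at least 4 T made up 17.5% of cluster bases and a median of 8.91% of the bases in cluster summit windows.

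A pair of words picked from the 4834 peaks outside the clusters recurred under the cluster peaks. AAGGCGC (read on the other strand as GCGCCTT) was in 25 of 226 cluster summit windows, or 11.1%, against 1.77% of flanking windows and 0.546% of all cluster windows. CGAGACC was in 31, or 13.7%, against 2.88% of flanking windows and 0.996% of all cluster windows. In the 4834 other peaks the words were in 9.54% and 9.70% of summit windows, so neither was particular to the clusters. Either was in 42 cluster summit windows, or 18.6%, and both in 14. Peaks above the median signal had either word in 29 of 113 cases, and those at or below it in 13 of 113. Among the 33 peaks near a piRNA gene 2 had either word, or 6.06%, against 40 of the other 193, or 20.7%. The words were chosen for their frequency at peaks of the same data set, and no test was made.

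Where both words occurred in a cluster window, they were most often 20 or 21 bases apart. The first printed set shows the windows with that spacing. In 10 of the 14 cluster windows with both words, CGAGACC was followed on the same strand by GCGCCTT after 20 bases (8 windows) or 21 bases (2 windows). In 1 more, at Y41E3.8, the gap was 16 bases. The spacing was noticed in the cluster sequences and then counted in the 4834 other peaks. There 188 windows held both words, and in 112 of them the words came in this order at most 60 bases apart. In 74 the gap was 20 bases (58) or 21 bases (16), or 39.4% of the 188. Another 27 had a gap of 17 bases, and every other gap up to 60 bases occurred in at most 5. Genes at the 10 cluster pairs included puf-3 and puf-11 (signals 1602 and 1470), pgl-1, which encodes a constitutive P-granule protein, beside him-3, a component of the meiotic chromosome axis (131), eef-1B.2, a translation elongation factor subunit (147), and rpn-1, a proteasome subunit, beside ribo-1 (194). None of the 10 was within 3000 bp of a piRNA 5′ end.

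The spaced pair was then counted over the whole genome. The words were picked from peaks of these same data and the spacing from cluster windows. The shares at summits that follow are therefore descriptions and not a test of the pair. The clusters contained 18 occurrences of the pair with a gap of 20 or 21 bases, and 11 of them, or 61.1% (38.6 to 79.7%), had a summit within 50 bp of the middle of the pair. In the rest of the chromosome it was 10 of 18, or 55.6% (33.7 to 75.4%), and on the other chromosomes 66 of 114, or 57.9% (48.7 to 66.6%). With a gap of 17 bases the clusters had 22 pairs with 0 at a summit, where the Wilson upper limit is 14.9%, against 9 of 31 in the rest of the chromosome and 22 of 150 on the other chromosomes. With gaps of 22 to 60 bases it was 0 of 8, 1 of 12 and 4 of 59. Of the 18 cluster pairs, the 11 with a summit were 3048 to 31542 bp from the nearest piRNA 5′ end, and the 7 without were 105 to 15321 bp away. Of those 7, 2 had a call in the ranked list.

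**Figure D5:**
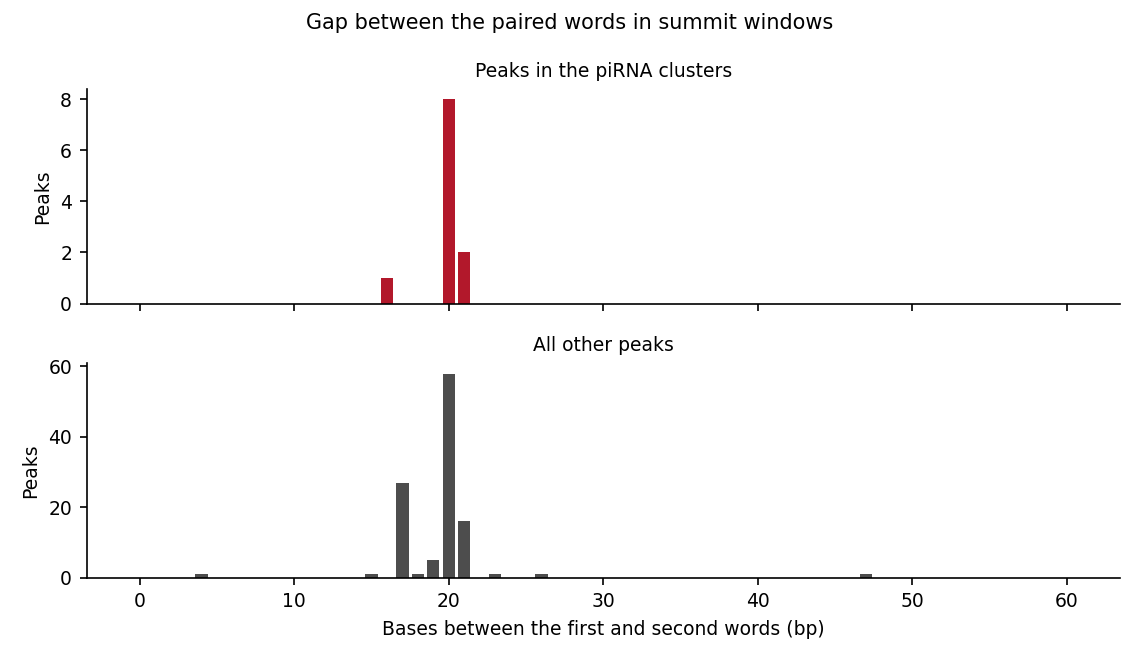
Number of peaks with the paired words in their 101-bp summit window, by the number of bases between the words on the strand that reads CGAGACC first, for the 226 cluster peaks (red) and the 4834 other peaks (grey). Both panels peak at 20 bases, with 8 and 58 peaks, and at 17 bases there are 0 cluster peaks and 27 others.

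A share of the cluster peaks lay on repeated DNA. The windows were searched for runs of 20 bases that occur elsewhere in the genome on either strand. At least 1 such run with 10 or more copies was found in 50 of the 226 cluster windows, or 22.1% (17.2 to 28.0%), against 121 of 662, or 18.3%, in the rest of the chromosome, a difference of 3.85 percentage points (-1.98 to 10.3). Evenly spaced windows, taken every 5000 bp of the chromosome, had it in 13.7% of cases in the clusters. The share was 39.4% (24.7 to 56.3%) in the 33 peaks near a piRNA gene, against 19.2% (14.2 to 25.3%) in the other 193, a difference of 20.2 points (4.28 to 37.8). Evenly spaced cluster windows had it in 9.49% of cases within 500 bp of a piRNA 5′ end and in 21.02% (17.5 to 25.01%) of cases farther away, close to the share in the 193 peaks. The left cluster had it in 11.0% of windows and the right in 32.5%. How reads that match several places were handled is not given in the sources used here, and its part in these peaks was not tested.

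Peaks shared repeats with each other. In the clusters 41 peaks, or 18.1%, had a run of 20 bases in common with another cluster peak, and 5 groups of 3 or more peaks were linked in this way. The strongest group had 4 peaks, all in the right cluster, at 15896078 (signal 632, 367 bp from 21ur-15381), 15059347 (599), 13668116 (164) and 14218190 (92.7). A run shared by 3 of the 4, in capitals in the third printed set, occurs 342 times in the genome. The peak at 15896078 had signals of 208 and 419 in replicates 1 and 2, and that at 15059347 had 226 and 400. The largest group had 5 peaks with signals of 81.0 to 215, 2 in the left and 3 in the right cluster, and none of these had a protein-coding 5′ end within 500 bp. A group of 3 in the left cluster had signals of 175 to 298 and runs with at most 4 copies. Of its summits, 1 was 13 bp from sls-2.13, 1 was 23 bp from sls-2.12, and the third, at 5264867, had F36H12.5 as its nearest protein-coding gene.

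Genes that make or use piRNAs were considered last, as a list of 29 genes drawn up with earlier results of these data known. Of these, 27 were matched by name in the annotation, and prg-2 and tofu-3 were not. Bound genes numbered 17 of 27, or 63.0%, against 13.4% of all protein-coding genes. Since the list was drawn up with results known, this share is a description and not a test of a link to the pathway. High shares were not particular to it: 65 of 78 ribosomal protein genes in the genome were bound. All but 1 of the 27 lie outside the clusters. Among the genes for transcription of piRNA genes 3 of 7 were bound: prde-1, a subunit of the upstream complex that recognises piRNA promoters (signal 190), its partner tofu-4 (67.7), and isw-1, a chromatin remodeller (1048). The nearest summits to snpc-4 and tofu-5, which encode the remaining members of that complex, were 5101 and 10200 bp away.

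Among genes for piRNA processing 9 of 13 were bound. slfl-4, which encodes a Schlafen-like subunit of the nuclease that trims piRNA precursors at the 5′ end, was the member of the list inside a cluster. Its summit at 5274313, with a signal of 132, lay 218 bp upstream of the gene and 72 bp from a piRNA 5′ end, and was in replicate 2's own thresholded list only. tofu-1, another subunit, had a signal of 134, and tofu-6, of the complex that handles precursors, had 1149. tofu-7 had 96.4 and ife-3, which encodes a cap-binding protein, 227. pid-1, tost-1, pid-3 and erh-2, also of that complex or its adaptors, had 197, 174, 96.4 and 98.1. Among the effectors 5 of 7 were bound: pid-5 (1614), the nuclear Argonaute gene hrde-1 (1351), wago-1 (348), pid-2 (114) and prg-1, the Piwi gene itself (89.4). The peaks at prde-1, isw-1, tofu-6, tost-1, ife-3, hrde-1, wago-1, pid-2 and pid-5 were in both replicates' own thresholded lists. Like slfl-4, those at tofu-1, tofu-4, pid-1, pid-3, erh-2 and prg-1 were in replicate 2's list only. The peak at tofu-7 was in neither, and that at tofu-4 was not in the conservative list. The unbound genes of the list, besides snpc-4 and tofu-5, were attf-6 and unc-130 (transcription), tofu-2, slfl-3, parn-1 and henn-1 (processing), and mut-16 and pid-4 (effectors). No summit lay within 1000 bp of their 5′ ends.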

How the data were processed

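Coordinates are 1-based on the ce11 assembly (WBcel235), per the labels. The authors deposited 7 peak lists used here: a ranked and a thresholded list of each replicate, and a ranked, a less strict and a conservative list combining both. The signal of a peak is the authors' enrichment value, and the score their scaled irreproducible discovery rate, which runs to 1000 and has a minimum of 830 in the less strict list. Summit positions follow from the offsets that the authors deposited. The control library was shared by both replicates, per the deposited text. The aligner, the caller and the read depth: not given in the sources used here.

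Summits were compared with Ensembl release 115 genes, with overlap of peaks counted from 1 bp, in Python 3.11.15 with numpy 2.4.6, pandas 2.3.3, scipy 1.17.1 and matplotlib 3.10.9. Shares have 95% Wilson intervals, differences of shares Newcombe intervals and density ratios exact conditional intervals. The intervals reflect counting error alone, as if peaks and genes were independent, although neighbours are not. Shares of cluster bases or windows are exact. No p-values were computed. The counting functions were tested on simulated data.

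The peaks, gene lists and tests were chosen with earlier results of these data known. The rule for named peaks took the 12 with the highest signal in each cluster, the 5 nearest a piRNA 5′ end, the summits nearest each limit, the 3 lowest signals, the pathway genes and the extreme bins. The rule also took the 5 strongest peaks near a tRNA, snRNA or snoRNA gene. Alternatives were the conservative list, the list of either replicate, peaks with signal above the median, other limits, windows and references, and the ranked list. The word spacing, repeats, small RNA classes, the one-to-one matching of replicate peaks, and the division of sequence and of genes by piRNA neighbours were added after the data were seen.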

Additional observations from a re-analysis of the deposited data

How the results depend on the processing

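No paired analysis was possible because there was only 1 group. The lower summit density in the clusters and the lower share of piRNA genes with a summit kept their direction under every alternative run. So did, within the clusters, the lower share of summits than of bases near piRNA genes. Their intervals excluded no difference throughout. The same was true of the higher share of cluster summits near piRNA genes than in the rest of the chromosome. That share is no sign of a preference, since 61.9% of cluster bases and 3.35% of the others were within 500 bp of a piRNA 5′ end. In sequence away from piRNA genes the higher density of the clusters had an interval that included 1 at 250 bp in the combined lists (1.18 in the conservative one) and in replicate 2, and at 500 bp in the ranked list. It turned to 0.856 in the ranked list at 250 bp. Over all settings it ranged from 0.856 to 1.85. The cause was not tested. The difference between cluster genes with and without a piRNA neighbour also kept its direction. The density ratio ranged from 0.532 (limits moved 0.25 Mb inwards) to 0.849 (per protein-coding gene). The difference between cluster genes ranged from -39.2 points (ranked list) to -12.6 (stronger part by signal).

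The lower share of bound protein-coding genes in the clusters kept its direction, but its interval included 0 in the conservative list (-2.28 points), the stronger part by signal (-1.52), with limits moved outwards (-1.53) and with a 250-bp window (-2.14), and leaving out either replicate gave -2.63 to -1.13 points. The cause was not tested. The share of summits near protein-coding 5′ ends gave an interval excluding 0 only with a 1000-bp window (-7.29 points). The share of peaks in both replicates' lists turned to -1.41 points in the stronger part by signal, its interval again including 0. The difference in median GC, 0 as reported, was 0.990 points in the conservative list, with either replicate left out and with limits moved inwards, and 0.995 with 100 bp to each side. The correlation over bins was -0.38 with bins of 50 kb and -0.47 with bins of 200 kb.

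Read depth is unknown, so how far it limits the weaker peaks of replicate 1 was not tested. Only 2 replicates of 1 strain were compared.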
